A study of Mus musculus with 20 samples.

Results

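Hox genes of the mouse spinal cord are described here, taken as every gene of the Hoxa, Hoxb, Hoxc and Hoxd clusters that had a probe set naming no other gene. There were 36 such genes among the 22180 genes with a probe set of their own. Hoxa11, which shared its probe sets with the antisense gene Hoxa11os, and Hoxd4, which shared its probe set with Hoxd3, were not members. Hoxb5 had 2 probe sets of its own and the one with the higher mean over the 20 arrays was used, while each other member had 1 of its own. Signals above a rough floor were found for members of paralogue groups 3 to 12, and above a stricter floor for members of groups 4 to 11. No member was called for genotype or Dex. Hoxc12 and Hoxd11, near the caudal end of the series, were low in the same 3 arrays of 3 different groups.

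Spinal cord RNA was hybridised to 20 Affymetrix whole-transcript arrays, in 4 groups of 5 mice each, and p-values measure the spread between these samples. Cx30GRko mice lose the glucocorticoid receptor gene through Cre recombinase in cells that express connexin 30, a gap junction protein of astrocytes, and cells that do not express it keep the gene. Mice were labelled C57BL/6J and 6 to 10 weeks old, and tissue was taken 4 h after an intraperitoneal injection of saline or of the receptor agonist dexamethasone (Dex, 4 mg/kg). The groups were control saline, control Dex, Cx30GRko saline and Cx30GRko Dex. The alleles that the controls carry and the cord segments taken are not given in the sources used here.

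Hox genes encode homeodomain transcription factors, and their order along each cluster matches the rostral-to-caudal order of their domains in the embryo. Genes at the same place in different clusters form a paralogue group, and low group numbers mark the hindbrain while high numbers mark the lumbar, sacral and tail levels. In the cord they set the identity of motor neuron columns, and many stay transcribed in the adult. In bulk tissue, fewer cells of a type and less RNA per cell cannot be told apart.

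The sequences just before the transcription start are shown for Hoxd11, whose signal differed most plainly between single arrays beside Hoxc12, and for Hoxb4 and Hoxd3, the members with the smallest unadjusted p for a difference between groups. They are 250 bases long, read 5′ to 3′ on the gene's strand from RefSeq's GRCm38.p6 table, and capitals mark motif matches. Hoxd11 has a pair of annotated starts, at chr2:74679308-74679557 and chr2:74682073-74682322 (plus strand). Hoxb4 is at chr11:96318017-96318266 and Hoxd3 at chr2:74711743-74711992, both on the plus strand.
Hoxd11, upstream start: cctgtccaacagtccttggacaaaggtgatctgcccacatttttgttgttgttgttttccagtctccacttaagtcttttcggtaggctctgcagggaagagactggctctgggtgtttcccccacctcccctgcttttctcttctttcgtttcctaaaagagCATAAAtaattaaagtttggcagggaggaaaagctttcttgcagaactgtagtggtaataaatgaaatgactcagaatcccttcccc
Hoxd11, downstream start: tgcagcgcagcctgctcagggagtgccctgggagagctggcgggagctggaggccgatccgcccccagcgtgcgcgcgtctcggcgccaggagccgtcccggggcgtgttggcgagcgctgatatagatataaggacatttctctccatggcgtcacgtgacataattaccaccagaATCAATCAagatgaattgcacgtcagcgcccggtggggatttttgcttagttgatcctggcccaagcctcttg
Hoxb4: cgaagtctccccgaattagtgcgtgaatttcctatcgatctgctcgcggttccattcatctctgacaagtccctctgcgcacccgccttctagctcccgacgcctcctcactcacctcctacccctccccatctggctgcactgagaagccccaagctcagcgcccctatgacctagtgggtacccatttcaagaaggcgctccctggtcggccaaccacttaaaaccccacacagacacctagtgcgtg
Hoxd3: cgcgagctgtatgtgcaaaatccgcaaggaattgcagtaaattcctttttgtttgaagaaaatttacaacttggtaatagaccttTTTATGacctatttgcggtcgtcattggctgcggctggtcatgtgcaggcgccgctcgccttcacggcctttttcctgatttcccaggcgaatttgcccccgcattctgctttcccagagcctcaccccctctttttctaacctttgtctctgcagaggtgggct

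The table matched 20 of the 36 members with 22 windows, and Hoxc12 was not among them. Both strands were searched for TTTATG, a site of posterior Hox and Cdx proteins, for TGATNNAT, a joint site of Hox and Pbx proteins, and for ACANNNTGT, the core of the glucocorticoid receptor element, and no printed match overlapped another. TTTATG was found in 4 of the 22 Hox windows, 18.2%, against 10.8% of all 32851 windows of this length, and the matches were in Hoxa7, Hoxb8, Hoxd11 and Hoxd3. TGATNNAT was found in 4 as well, against 7.68% of all windows, in Hoxa2, Hoxb1, Hoxb8 and Hoxd11. No Hox window held ACANNNTGT, which was in 5.84% of all windows. The Hox windows had a median GC content of 59.2% and a median of 12.5 CpG dinucleotides, against 52.4% and 6 over all windows.

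Signals are log2 probe set values as the authors deposited them. All 20 arrays had the same mean, 4.64, and each probe set had the same mean in replicates 1 to 3 (12 arrays) as in replicates 4 and 5 (8 arrays), so a level can be ranked between arrays only within one of these sets. Each set holds every group, and values within the sets are given beside pooled ones. The Cx30GRko Dex arrays 4 and 5 stood apart: their signals had SDs of 1.95 and 1.81, where no further array of replicates 4 and 5 left the range from 1.66 to 1.71. All 8 arrays of replicates 4 and 5 were noisier than the 12 of replicates 1 to 3. Their mean correlations with the other arrays ran from 0.89 to 0.92, against 0.93 to 0.95. Array weights estimated in limma ran from 0.25 to 0.64, against 1.03 to 2.36. The main fit pooled both sets and gave every array the same weight. The targeted gene, Nr3c1, had group means of 6.21, 6.22, 6.19 and 6.59 in the order of the groups above and single arrays between 5.40 and 7.79. Cx30GRko minus control under saline was -0.02 ± 0.26 (SE) for this gene, with an adjusted p of 0.995 in limma. Where its probes lie relative to the deleted part is not given in the sources used here, so it checks no label. Gjb6, the connexin 30 gene, had single arrays between 5.80 and 7.06.

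To say which members gave a signal, the 95th percentile of the mean signals of 1088 olfactory receptor genes, 4.87, was taken as a rough floor. Probe sets differ in their response, so the order of their signals is not an order of transcript abundance. Above this floor were 22 of the 36 Hox genes, 61.1%, against 46.4% of all genes. Every paralogue group from 3 to 12 had at least 1 member above it, and groups 1, 2 and 13 had none. In groups 4 to 7, 10 of 11 members were above it, and in groups 8 and 9, 6 of 7. In groups 10 and 11 it was 3 of 5, in groups 12 and 13, 1 of 6, and in groups 1 to 3, 2 of 7.

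Each cluster contributed members above the floor: 5 of 9 in Hoxa, 7 of 10 in Hoxb, 6 of 9 in Hoxc and 4 of 8 in Hoxd. Within groups 3 to 12 the members that stayed below it were Hoxa3 (4.21), Hoxc5 (4.13), Hoxd9 (3.85), Hoxa10 (4.80), Hoxc11 (3.69) and Hoxd12 (3.20). A further probe set, which names Hoxa3 together with 5730446D14Rik, was above the floor with a mean of 5.83. Hoxb3, at 5.25, was the member just above the floor and Hoxa10 the one just below it. Set against each array's own floor, which ran from 4.56 to 5.43, 14 members were above it in all 20 arrays and 10 in none. With the 99th percentile of the olfactory receptor genes, 5.95, as the floor 16 members were above it, all of them in groups 4 to 11. Hoxd3 (5.28), Hoxb3 and Hoxc12 (5.39) were below that stricter floor. Hoxc12 was above the array's own floor in 12 of 20 arrays. With the 95th percentile of 285 vomeronasal receptor genes as the floor 21 members were above it.

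**Figure D1:**
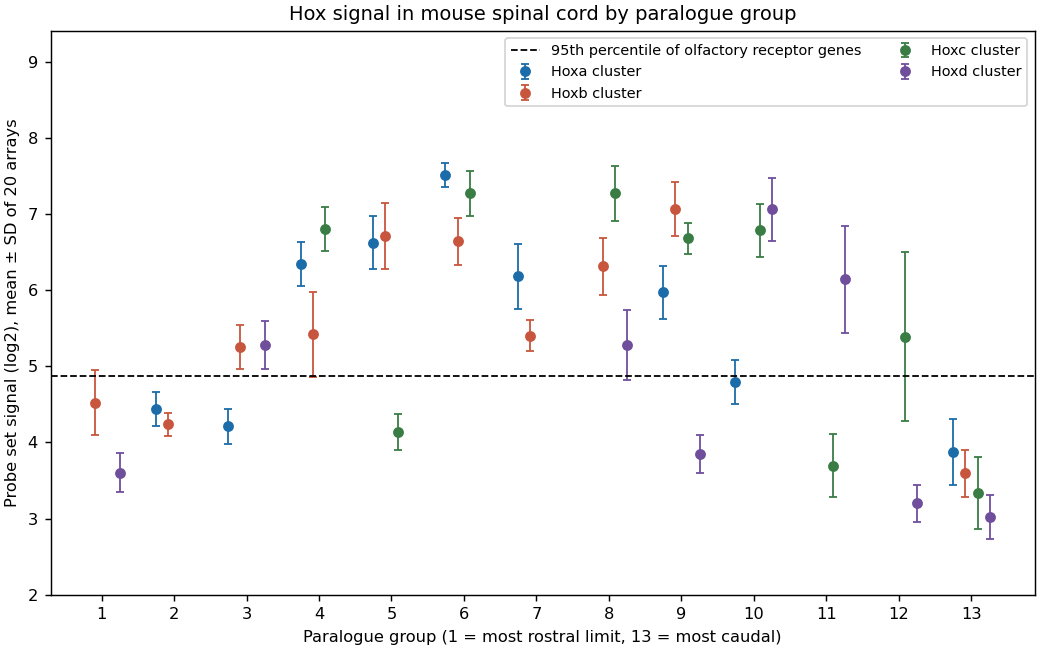
Mean log2 probe set signal of the 36 Hox genes (vertical axis, error bars SD over 20 arrays) by paralogue group (horizontal axis), coloured by cluster, with the 95th percentile of olfactory receptor genes (4.87) as a dashed line. Members above the line lie in groups 3 to 12, all members of groups 1, 2 and 13 lie below it, and Hoxc12 has the widest error bar.

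The tissue label was set against marker lists. Above the floor were 7 of 8 markers of cholinergic and motor neurons, 5 of 6 of spinal inhibitory neurons, 8 of 8 of astrocytes and 5 of 5 of oligodendrocytes. Of 16 measured transcription factors of the forebrain and midbrain 3 were above it: Otx1 (6.59), Barhl2 (5.73) and Nkx2-1 (5.18). None of 7 markers of dorsal root ganglion neurons was above it, and 2 of 6 of cerebellum and brain stem neurons, 1 of 7 of bone and cartilage and 2 of 8 of skeletal muscle were. Markers of Schwann cells and roots (4 of 6) and of meningeal fibroblasts (6 of 9) were above it.

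No Hox gene was called in any comparison between the groups. In limma's fit over all 22180 genes, none of the 36 passed an adjusted p of 0.05 for Dex in control mice (0.0135% of all genes passed), for Dex in Cx30GRko mice (0.018%), for the mean of both Dex effects (0.149%) or for any difference among the 4 groups (0.0541%). For the interaction and for genotype under saline or under Dex no gene of the array passed (0%). The lowest adjusted p of any member was 0.61 for Dex in control mice, 0.47 for Dex in Cx30GRko mice, 0.846 for the interaction, 0.914 for genotype under saline, 0.423 for genotype under Dex, 0.457 for the mean Dex effect and 0.522 for any difference.

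At an unadjusted p under 0.05 there were 2 members for Dex in control mice, where 5.16% of all genes passed, and 4 for Dex in Cx30GRko mice, where 9.73% did. There were 2 for the interaction (5.65%), 1 for genotype under saline (5.25%), 2 for genotype under Dex (11.2%), 2 for the mean Dex effect (8.64%) and 4 for any difference (9.5%). The members' shares lay between 2.78% and 11.1%, where those of all genes lay between 5.16% and 11.2%. The median Hox difference was 0.02 for Dex in control mice, -0.05 for Dex in Cx30GRko mice, 0.04 for genotype under saline and -0.07 for genotype under Dex, where the medians of all genes were 0.01, 0.02, 0.01 and 0.01. These comparisons share groups and are not independent of each other. The median residual SD was 0.31 for the Hox genes and 0.32 for all genes.

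**Figure D2:**
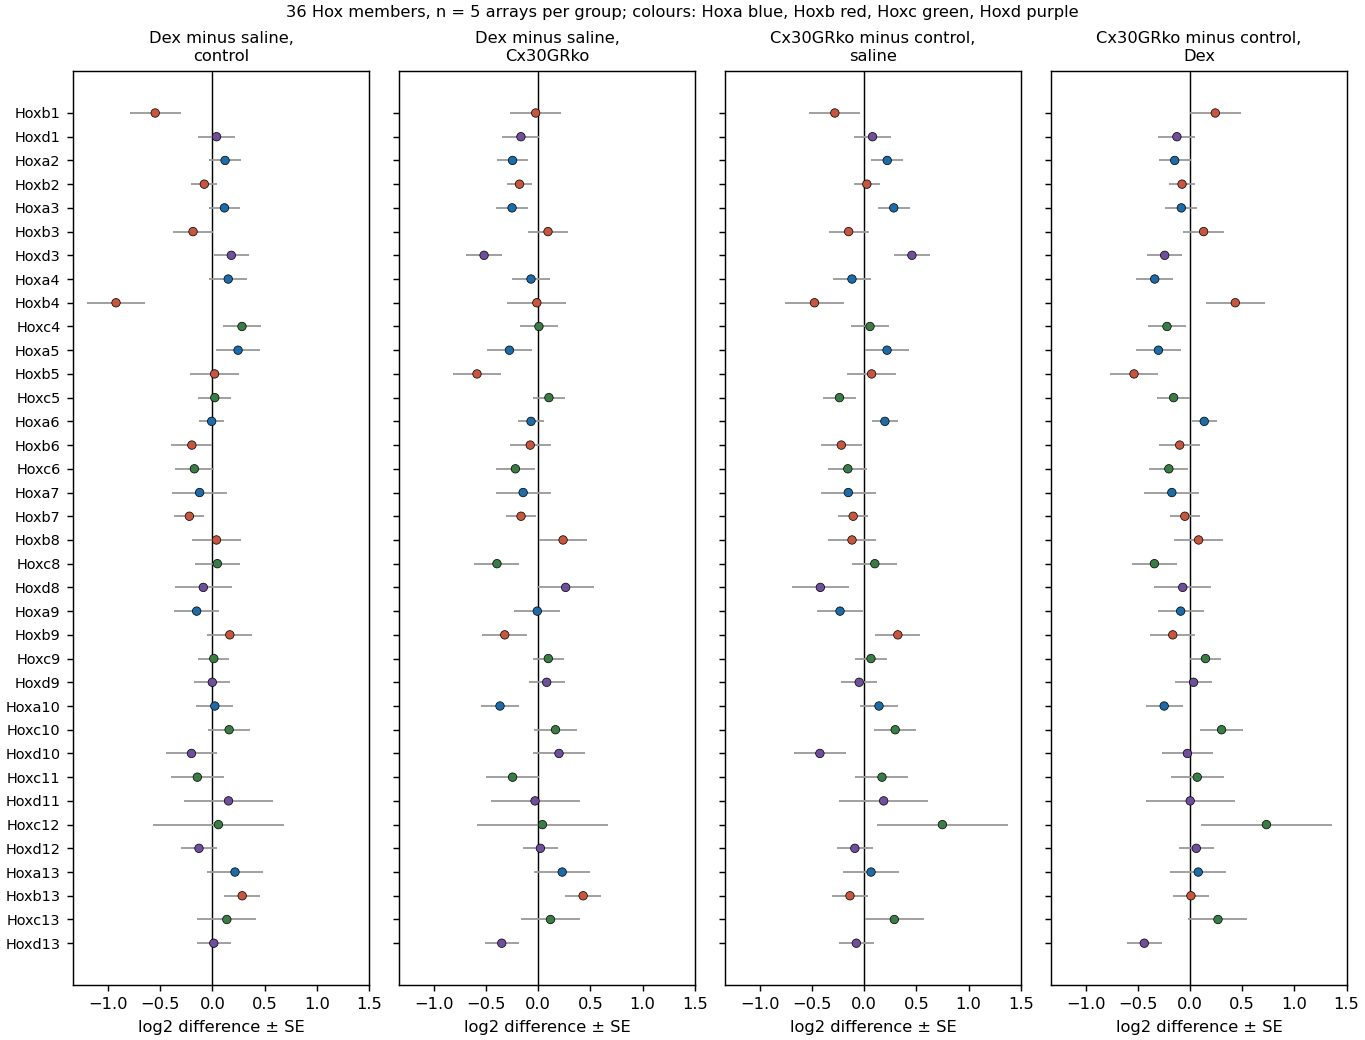
Log2 differences with SE (horizontal axes) for the 36 Hox genes, ordered by paralogue group from top to bottom, in 4 comparisons with 5 arrays per group. The lowest point is Hoxb4 for Dex in control mice (-0.92), and Hoxc12 and Hoxd11 have the widest error bars.

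Single values follow in order of paralogue group, listed by replicate from 1 to 5 within each group. Among the members of groups 1 to 3, Hoxb1 patterns the embryonic hindbrain at the level of the facial motor neurons. Hoxb1 signals were 4.52, 4.76, 4.14, 5.65, 4.97 with saline and 4.31, 4.65, 3.81, 3.99, 4.54 with Dex in control mice, against 4.58, 4.72, 4.85, 3.78, 4.71 with saline and 4.76, 4.71, 4.50, 4.24, 4.31 with Dex in Cx30GRko mice. The group means were 4.81 ± 0.56, 4.26 ± 0.35, 4.53 ± 0.43 and 4.50 ± 0.23 (SD, n = 5), and the ranges of all groups overlapped. Dex minus saline in control mice was -0.55 ± 0.24 (SE), with an adjusted p of 0.94 in limma, and the array sets gave -0.22 (replicates 1 to 3) and -1.04 (replicates 4 and 5). Without control saline 4 the difference was -0.34. Hoxb1 was above the array's own floor in 1 of 20 arrays.

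Hoxa2, which patterns the hindbrain and the neural crest of the second branchial arch, lay below the floor. Hoxa2 signals were 4.15, 4.45, 4.54, 4.23, 4.40 with saline and 4.64, 4.46, 4.49, 4.27, 4.51 with Dex in control mice, against 4.98, 4.24, 4.67, 4.48, 4.51 with saline and 4.48, 4.09, 4.01, 4.59, 4.48 with Dex in Cx30GRko mice, and the ranges of all groups overlapped.

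Hoxd3, a gene of the upper cervical level, was among the few members whose signals in 2 groups did not overlap. Hoxd3 signals were 5.31, 4.93, 5.26, 5.24, 4.95 with saline and 5.44, 5.25, 5.14, 5.06, 5.72 with Dex in control mice, against 5.34, 5.55, 5.45, 5.77, 5.87 with saline and 5.43, 5.25, 5.07, 4.55, 5.09 with Dex in Cx30GRko mice. All 5 Cx30GRko saline arrays were above all 5 control saline arrays. The ranges of these 2 groups did not overlap, in either direction, in 0.938% of all genes and, among Hox genes, in Hoxd3 alone. The group means were 5.14 ± 0.18, 5.32 ± 0.27, 5.60 ± 0.22 and 5.08 ± 0.33 (SD, n = 5). Cx30GRko minus control under saline was 0.46 ± 0.17 (SE), adjusted p = 0.914 in limma, and 0.28 and 0.73 within the 2 array sets. Dex minus saline in Cx30GRko mice was -0.52 ± 0.17, adjusted p = 0.47, and the interaction was -0.70 ± 0.24, adjusted p = 0.846. Of the Dex difference, -0.20 was seen in replicates 1 to 3 and -1.0 in replicates 4 and 5, the set that holds the Cx30GRko Dex arrays that stood apart. Hoxd3 overlaps Hoxd4 in the annotation, and the probe set that names both had a Dex difference of the opposite sign in Cx30GRko mice (0.13).

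In groups 4 to 7, the cervical and brachial levels, Hoxb4 had the smallest unadjusted p of all members. Hoxb4 specifies cervical vertebrae and is known for the expansion of blood stem cells. Its signals were 5.58, 5.82, 5.53, 6.00, 6.52 with saline and 5.42, 5.43, 5.29, 4.79, 3.92 with Dex in control mice, against 5.50, 5.18, 5.27, 6.16, 4.97 with saline and 4.98, 5.43, 5.61, 5.05, 5.94 with Dex in Cx30GRko mice. All 5 control Dex arrays lay below all 5 control saline arrays, and the Cx30GRko groups overlapped. Ranges of the control groups that did not overlap, in either direction, were seen in 1.24% of all genes and, among Hox genes, in Hoxb4 alone. The group means were 5.89 ± 0.40, 4.97 ± 0.64, 5.42 ± 0.46 and 5.40 ± 0.40 (SD, n = 5). Control Dex 4 and 5 (4.79 and 3.92) lay below the floor of 4.87, so no fold is given. Hoxb4 was above the array's own floor in 17 of 20 arrays. Dex minus saline in control mice was -0.92 ± 0.28 (SE), with an unadjusted p of 0.00349 and an adjusted p of 0.61 in limma. The array sets gave -0.26 (replicates 1 to 3) and -1.91 (replicates 4 and 5), and in the latter control Dex array 5 had the lowest signal of all, 3.92. The interaction was 0.91 ± 0.40, adjusted p = 0.846. Hoxb4 overlaps Hoxb3 in the annotation, and Hoxb3 had no array outside 4.72 to 6.05. A further probe set, which names Hoxb4 together with Mir10a, was below the floor with a mean of 3.40.

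Hoxc4, at the cervical level, was above the floor on every array. Hoxc4 signals were 6.79, 6.95, 6.65, 6.72, 6.41 with saline and 6.62, 6.86, 7.25, 6.85, 7.35 with Dex in control mice, against 6.54, 6.77, 6.62, 7.12, 6.74 with saline and 6.99, 6.70, 6.90, 6.12, 7.12 with Dex in Cx30GRko mice, with overlap of all groups. Hoxb5 is a further gene of the cervical and brachial cord. Hoxb5 signals were 6.78, 6.88, 6.72, 6.70, 7.01 with saline and 6.71, 6.88, 6.76, 7.44, 6.40 with Dex in control mice, against 6.89, 6.68, 6.99, 7.35, 6.54 with saline and 6.18, 6.62, 6.46, 6.91, 5.35 with Dex in Cx30GRko mice. Its lowest arrays were Cx30GRko Dex 5 (5.35) and 1 (6.18), and the group means were 6.82 ± 0.13, 6.84 ± 0.38, 6.89 ± 0.31 and 6.30 ± 0.60 (SD, n = 5). Dex minus saline in Cx30GRko mice was -0.59 ± 0.23 (SE), adjusted p = 0.483 in limma, with -0.43 and -0.82 in the array sets, and without Cx30GRko Dex 5 it was -0.35. The other Hoxb5 probe set, with a mean of 4.47 below the floor, gave 0.15.

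Hoxa6 was the most even of the members above the floor. Hoxa6 signals were 7.49, 7.48, 7.37, 7.30, 7.51 with saline and 7.41, 7.47, 7.40, 7.45, 7.39 with Dex in control mice, against 7.53, 7.54, 7.74, 7.84, 7.51 with saline and 7.59, 7.70, 7.42, 7.29, 7.80 with Dex in Cx30GRko mice. All 20 values lay between 7.29 and 7.84, and its residual SD of 0.14 was at percentile 1.14 of all genes. Hoxa7, a gene of the brachial and thoracic levels, was even in replicates 1 to 3 and spread in replicates 4 and 5. Hoxa7 signals were 6.31, 6.33, 6.15, 5.63, 7.20 with saline and 6.32, 6.05, 6.06, 7.05, 5.52 with Dex in control mice, against 6.04, 6.15, 6.23, 5.97, 6.46 with saline and 6.15, 6.14, 6.23, 6.27, 5.35 with Dex in Cx30GRko mice. A further probe set, which names Hoxa7 together with Mira, was above the floor with a mean of 5.55. Its Dex difference in Cx30GRko mice was 0.71, where that of the Hoxa7 member was -0.14. The remaining members of groups 4 to 7 include Hoxa5, Hoxc5 and Hoxc6, known for phrenic and forelimb motor neurons. Hoxa5 (mean 6.62) and Hoxc6 (7.27) were above the floor and Hoxc5 (4.13) was not.

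In groups 8 and 9, Hoxc8 helps to define brachial motor pools, Hoxc9 sets the boundary between forelimb and thoracic motor columns, and Hoxb9 is expressed over the thoracic cord. Hoxc8 signals were 7.51, 7.53, 7.33, 7.27, 6.89 with saline and 7.04, 6.80, 7.68, 7.65, 7.60 with Dex in control mice, against 7.31, 7.39, 7.27, 7.69, 7.39 with saline and 7.83, 7.05, 6.52, 6.87, 6.81 with Dex in Cx30GRko mice. Within replicates 1 to 3 the highest was Cx30GRko Dex 1 (7.83) and the lowest Cx30GRko Dex 3 (6.52), from the same group. Hoxb9 signals were 7.01, 7.42, 6.41, 6.60, 7.28 with saline and 6.73, 7.37, 7.09, 7.10, 7.25 with Dex in control mice, against 6.95, 7.19, 7.65, 6.85, 7.70 with saline and 6.80, 7.04, 7.14, 7.29, 6.47 with Dex in Cx30GRko mice, again with overlap of all groups. Hoxc9 was even, with a mean of 6.68 and no array below 6.21 or above 7.02.

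In groups 10 and 11, Hoxc10 and Hoxd10 specify lumbar motor neurons and Hoxd11 marks the caudal lumbar and sacral levels. Hoxd10 signals were 7.26, 7.03, 7.06, 7.65, 7.38 with saline and 7.15, 7.08, 6.59, 6.78, 7.78 with Dex in control mice, against 7.24, 7.37, 7.23, 6.00, 6.44 with saline and 6.71, 7.11, 6.96, 7.09, 7.40 with Dex in Cx30GRko mice. Hoxc10 stayed between 6.53 and 6.97 in replicates 1 to 3 and reached 7.86 in Cx30GRko Dex array 4. Hoxd11 was not even: its signals were 6.54, 5.10, 6.56, 6.55, 5.33 with saline and 6.76, 6.35, 5.03, 5.76, 6.96 with Dex in control mice, against 6.50, 6.50, 6.56, 5.65, 5.81 with saline and 4.61, 6.58, 6.61, 7.18, 5.89 with Dex in Cx30GRko mice. In replicates 1 to 3, 9 of the 12 arrays lay between 6.35 and 6.76, and the other 3 were control saline 2 (5.10), control Dex 3 (5.03) and Cx30GRko Dex 1 (4.61). The group means, 6.02 ± 0.74, 6.17 ± 0.78, 6.20 ± 0.44 and 6.17 ± 0.99 (SD, n = 5), lay between 6.02 and 6.20, and the 3 arrays belonged to 3 different groups. Hoxd11 and Hoxd10 overlap in the annotation.

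In groups 12 and 13, the sacral and tail levels, Hoxc12 alone was above the floor. Hoxc12 signals were 6.22, 2.91, 5.08, 5.55, 5.19 with saline and 6.30, 6.20, 3.12, 4.69, 4.92 with Dex in control mice, against 6.14, 6.37, 5.91, 5.39, 4.89 with saline and 3.93, 6.15, 6.34, 7.24, 5.24 with Dex in Cx30GRko mice. The 3 lowest of replicates 1 to 3 were control saline 2 (2.91), control Dex 3 (3.12) and Cx30GRko Dex 1 (3.93), the same arrays as for Hoxd11, and the other 9 lay between 5.08 and 6.37. Within these 12 arrays the log2 signal ranged over 3.45 for Hoxc12 and 2.15 for Hoxd11, and the lowest signals of both (2.91 and 4.61) were below the floor of 4.87, so no fold is given. Hoxc12 had an SD of 1.31 over these 12 arrays, with 6 of 22180 genes larger, and Hoxd11 one of 0.76, with 60 larger. In replicates 4 and 5 the values were graded, Hoxc12 from 4.69 to 7.24 and Hoxd11 from 5.33 to 7.18, and Cx30GRko Dex 4 was the highest for both.

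For Hoxc12 the group means were 4.99 ± 1.24, 5.05 ± 1.30, 5.74 ± 0.60 and 5.78 ± 1.25 (SD, n = 5). Cx30GRko minus control under saline was 0.75 ± 0.62 (SE), adjusted p = 0.916 in limma, with 1.40 in replicates 1 to 3 and -0.23 in replicates 4 and 5. With control saline 2, control Dex 3 and Cx30GRko Dex 1 left out, a choice made after seeing the data, it was 0.23, and for Hoxd11 the difference went from 0.19 to -0.04. No Hox gene was called without these arrays either, while over the whole array 33 genes were called for the mean Dex effect with them and 12 without.

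**Figure D3:**
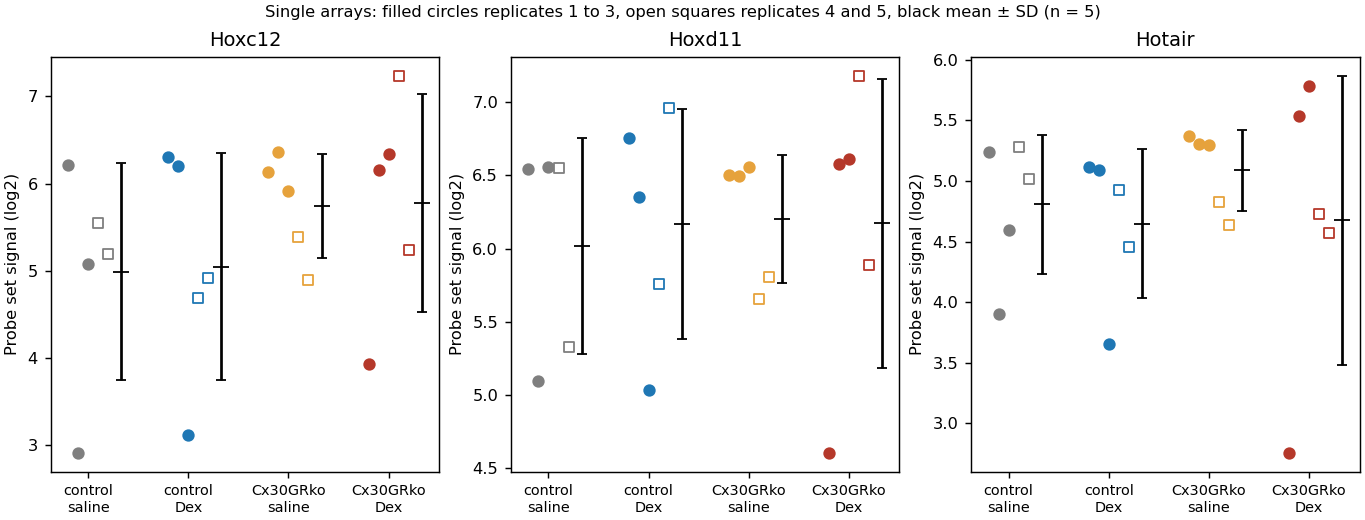
Log2 probe set signal (vertical axes) of Hoxc12, Hoxd11 and the noncoding Hotair in single arrays of the 4 groups, filled circles for replicates 1 to 3, open squares for replicates 4 and 5, and black bars for mean and SD of 5 arrays. In all 3 panels the 3 lowest filled circles are control saline 2, control Dex 3 and Cx30GRko Dex 1, and none is from Cx30GRko saline.

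Hotair, a noncoding RNA transcribed from between Hoxc11 and Hoxc12, was lowest in the same arrays, with 3.90 in control saline 2, 3.65 in control Dex 3 and 2.76 in Cx30GRko Dex 1. The other 9 arrays of replicates 1 to 3 lay between 4.60 and 5.79, and 17 genes of the array had a larger SD than its 0.91. In replicates 4 and 5 its spread was at percentile 21.56 of all genes, and Cx30GRko Dex 4, the highest for Hoxc12, had 4.73. Hoxc11, below the floor, also had its 3 lowest values of replicates 1 to 3 in these arrays (3.32, 3.16 and 2.67). For Hoxc13, which acts in hair and nails, they were 2.84, 2.62 and 2.51, with control saline 3 at 2.67 among them. Hoxd10 was 7.03, 6.59 and 6.71 there, where the other arrays of the set lay between 6.96 and 7.37.

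The 4 members of group 13 were below the floor. Hoxa13 and Hoxd13 pattern the digits and the urogenital tract, and Hoxb13 acts in the tail end of the embryo and in the prostate. Hoxa13 signals were 3.42, 3.94, 3.82, 4.11, 3.37 with saline and 3.72, 4.16, 3.59, 4.02, 4.24 with Dex in control mice, against 3.82, 4.28, 3.65, 3.69, 3.55 with saline and 3.62, 3.43, 5.07, 4.57, 3.45 with Dex in Cx30GRko mice, and Cx30GRko Dex 3 (5.07) was the highest. Hoxb13 signals were 3.75, 3.49, 3.35, 3.52, 3.30 with saline and 3.62, 4.29, 3.74, 3.56, 3.63 with Dex in control mice, against 3.51, 3.34, 3.18, 3.26, 3.45 with saline and 3.32, 3.46, 4.06, 4.20, 3.83 with Dex in Cx30GRko mice. The mean Dex effect on Hoxb13 was 0.36 ± 0.12 (SE), adjusted p = 0.457 in limma, with 0.31 and 0.43 in the array sets, all at signals below the floor. Hoxd13 signals were 3.38, 3.17, 3.03, 3.05, 3.06 with saline and 2.79, 3.30, 2.97, 3.22, 3.47 with Dex in control mice, against 3.28, 3.10, 2.73, 3.24, 2.97 with saline and 2.61, 2.57, 3.27, 2.49, 2.63 with Dex in Cx30GRko mice. Cx30GRko minus control under Dex was -0.44 ± 0.17 (SE) for Hoxd13, adjusted p = 0.423, with -0.20 and -0.79 in the array sets.

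**Figure D4:**
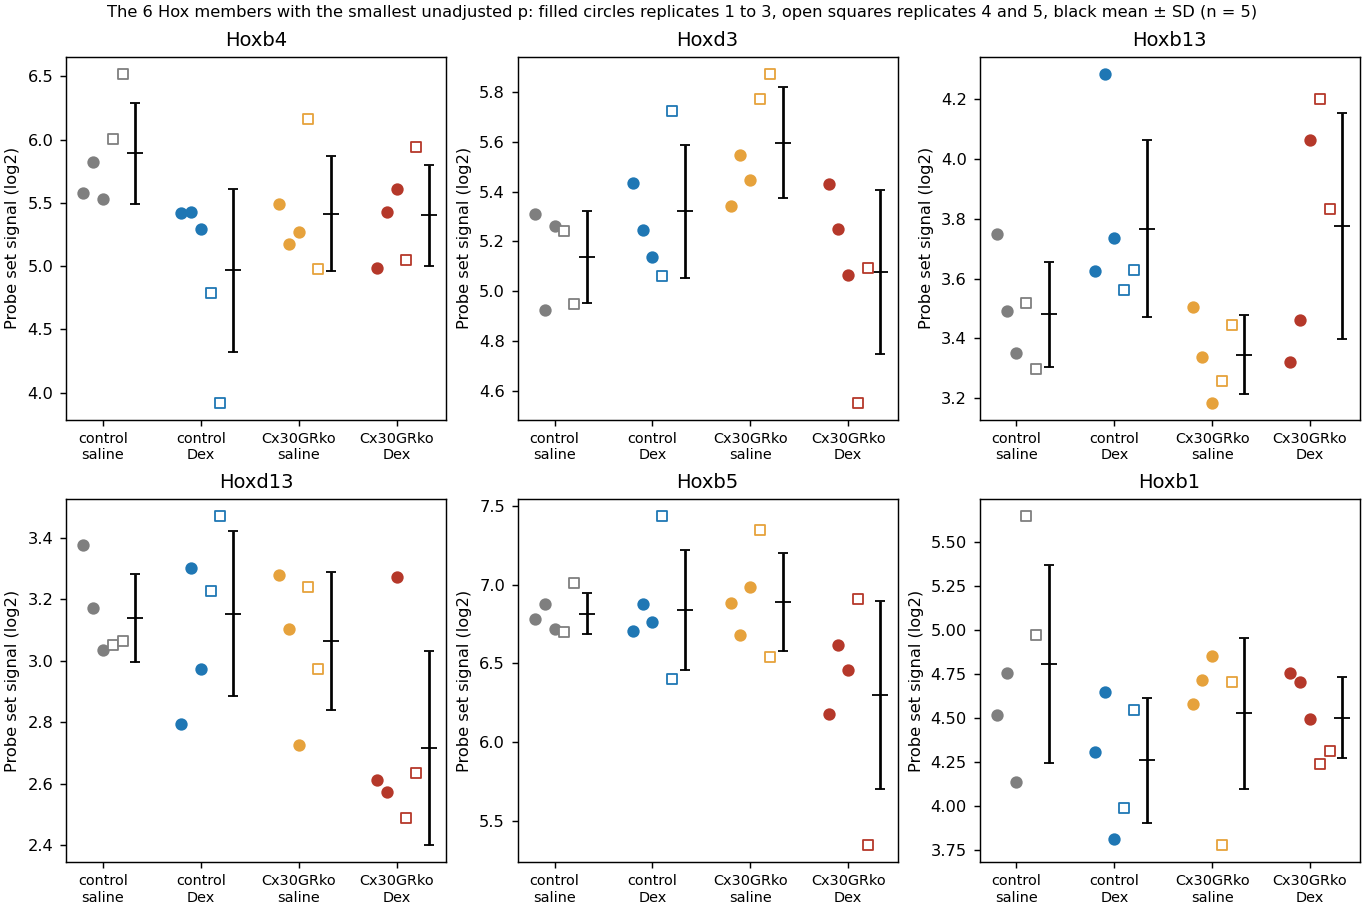
Log2 probe set signal (vertical axes) of the 6 Hox genes with the smallest unadjusted p, in single arrays of the 4 groups, with filled circles for replicates 1 to 3, open squares for replicates 4 and 5, and black bars for mean and SD of 5 arrays. The open squares are spread more widely than the filled circles for Hoxb4, Hoxd3, Hoxb5 and Hoxb1, and none of the 6 genes passed the adjusted threshold.

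Over bands of neighbouring paralogue groups, each array was described by the mean deviation of its members from the mean of its array set. Over the 20 arrays this score ranged over 0.39 for groups 1 to 3, 0.49 for groups 4 to 7 and 0.40 for groups 8 and 9, and over 1.23 for groups 10 and 11 and 1.20 for groups 12 and 13. The scores for groups 10 and 11 were -0.29 in control saline 2, -0.35 in control Dex 3 and -0.67 in Cx30GRko Dex 1, and for groups 12 and 13 they were -0.47, -0.52 and -0.54. These bands contain Hoxd11 and Hoxc12, by whose low signals the arrays were picked, so the low scores are not separate evidence. In these arrays the deviations were -1.04, -1.11 and -1.54 for Hoxd11 alone and -2.48, -2.27 and -1.46 for Hoxc12 alone. For groups 4 to 7 the same arrays had 0.23, 0.10 and -0.10. Control saline 2 was the highest of the 12 arrays in 7 members, all of them in groups 4 to 9, and Cx30GRko Dex 1 was the lowest in 8, of which 4 were among the 11 members of groups 10 to 13. Cx30GRko saline 3 was also the highest in 7 members, 4 of them in groups 4 to 9, and control Dex 3 was the lowest in 3 and the highest in 3. At the other end, Cx30GRko Dex 4 scored 0.56 for groups 10 and 11 and 0.44 for groups 12 and 13, and Cx30GRko Dex 3 scored 0.66 for groups 12 and 13. In replicates 4 and 5 the lowest score for groups 10 and 11 was that of Cx30GRko saline 4 (-0.30).

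The ranges of the 4 groups overlapped in the bands 4-7, 8-9, 10-11 and 12-13. In the band 1-3 the Cx30GRko saline arrays, from 0.04 to 0.20, lay above the Cx30GRko Dex arrays, from -0.19 to 0.03. Of the 7 members of this band 5 were below the floor, and over the 2 above it, Hoxb3 and Hoxd3, these groups overlapped, from -0.05 to 0.25 under saline and from -0.56 to 0.30 under Dex. Among single genes the ranges of these 2 groups did not overlap, in either direction, in 1.53% of all genes and in no Hox gene, and those of the genotypes under Dex in 1.28% of all genes and again in no Hox gene. For Dex in Cx30GRko mice 6 of the 7 members of this band had negative differences, with a median of -0.18, against a median of 0.02 over all genes, and none of them was called. The control arrays, from -0.03 to 0.13 under saline and from -0.19 to 0.12 under Dex, overlapped each other.

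**Figure D5:**
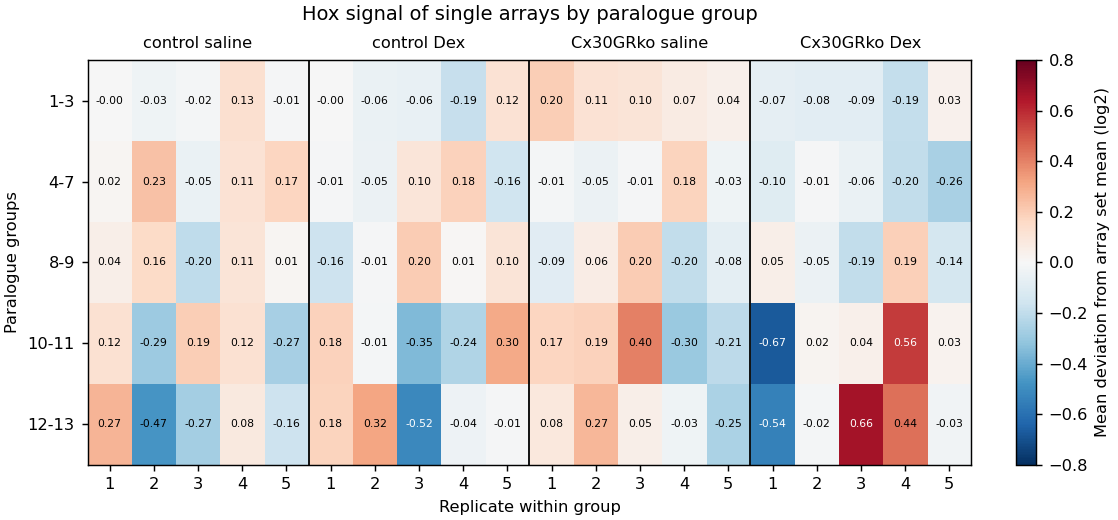
Mean deviation from the array set mean (colour and printed value, log2) of the Hox genes of 5 bands of paralogue groups (vertical axis) in each of 20 arrays (horizontal axis, replicate within group). The bands 10-11 and 12-13 span more than the bands 1-3, 4-7 and 8-9, and in replicates 1 to 3 their lowest cells are in control saline 2, control Dex 3 and Cx30GRko Dex 1. Hoxd11 and Hoxc12, by whose low signals these arrays were picked, are members of these bands.

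Markers of other tissues were read in the same arrays. The score of the 6 measured Schwann cell and root markers was -0.93 in control Dex 3 and -0.78 in Cx30GRko Dex 1, and 0.56 in control saline 2, within a range of -0.93 to 0.97 in replicates 1 to 3. The 9 meningeal markers gave -0.90, -0.74 and 0.34 within -0.90 to 0.72. Cx30GRko saline 3 had scores of -0.75 and -0.78 for these lists without a low Hoxc12 or Hoxd11 signal (5.91 and 6.56). In control Dex 3, Cx30GRko Dex 1 and control saline 2 the 8 markers of cholinergic and motor neurons gave 0.23, 0.45 and -0.12 within -0.41 to 0.45. Markers of cerebellum and brain stem neurons gave -0.07, -0.29 and 0.06 within -0.29 to 0.14. Those of spinal inhibitory neurons gave 0.10, -0.18 and -0.10 within -0.18 to 0.14, and those of bone and cartilage -0.15, -0.02 and -0.01 within -0.15 to 0.13. The 8 muscle markers were highest of the 12 arrays in control saline 2 (0.99). The part of these tissues in the Hox values was not tested.

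Across the 20 arrays, which share the centring within the array sets, pairs of Hox genes of the same cluster had a median correlation of -0.01 (145 pairs) and pairs of the same paralogue group one of 0.14 (35 pairs), against -0.01 over all 630 pairs.

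Hox proteins bind DNA together with Pbx, Meis and Pknox proteins. Of these cofactors 8 of 9 were measured and 5 were above the floor: Meis2 (7.57), Meis1 (6.44), Pknox2 (6.08), Pbx3 (5.74) and Meis3 (5.18). None was called in any comparison. For Dex in control mice 1 cofactor, Pbx3, had an unadjusted p under 0.05 (0.0279, adjusted p = 0.907 in limma), and for genotype under Dex 1 did, Pknox2 (0.0396, adjusted p = 0.439). Over all genes such a p was seen in 5.16% for Dex in control mice and in 11.2% for genotype under Dex.

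Among regulators of the Hox clusters, which include the Cdx factors, Polycomb and Trithorax proteins and retinoic acid receptors, 28 of 29 were measured and 17 were above the floor. For the mean Dex effect 1 of the 28 was called, where 0.149% of all genes were. This was Zbtb16, a zinc finger repressor, which rose with Dex by 1.19 ± 0.18 (SE) as the mean of both genotypes (adjusted p = 0.00268 in limma). The list was chosen with earlier results of these data known, so this call is not a result about the regulators as a set. At an unadjusted p under 0.05 in limma, 4 of the 28 were higher and 0 lower for Dex in control mice, where 5.16% of all genes passed. For genotype under Dex 4 were higher and 2 lower, where 11.2% of all genes passed. Cbx2, a Polycomb protein, lay below the floor at 3.78 and had unadjusted p-values of 0.00659 for Dex in control mice and 0.00371 for genotype under Dex, with adjusted p-values of 0.70 and 0.423. Bmi1, another Polycomb protein, had an unadjusted p of 0.00714 for genotype under Dex (adjusted p = 0.423 in limma), and Cdx4, an activator of posterior Hox genes, one of 0.0056 for Dex in control mice (adjusted p = 0.67). Bmi1 (3.58) and Cdx4 (3.33) lay below the floor as well.

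The Hox clusters also hold noncoding genes, of which 7 of 18 had a probe set of their own. Above the floor were Mir196a-1 (5.63), which lies beside Hoxb9, and Hoxd3os1 (5.09). Hotair (4.81), Mir615 (4.78), Hoxaas3 (4.75), Mir196a-2 (4.00) and Mir10b (2.82) were not, and none of the 7 was called in any comparison. The probe sets read the precursor transcripts of the miRNAs and not the mature forms. The mature forms are shown with their seeds, bases 2 to 8, in capitals (RefSeq, GRCm38.p6), because the seeds sort the measured miRNA genes by family.
miR-196a-5p, from Mir196a-1 and Mir196a-2: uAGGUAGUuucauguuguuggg
miR-196b-5p, from Mir196b: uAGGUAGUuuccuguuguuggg
miR-10b-5p, from Mir10b: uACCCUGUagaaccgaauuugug
miR-615-3p, from Mir615: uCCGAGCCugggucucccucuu

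Mir196a-1 of the Hoxb cluster and Mir196a-2 of the Hoxc cluster give the same mature miR-196a-5p, whose seed miR-196b-5p shares. The miR-196 family is known to target Hoxb8 transcripts. Mir196a-1 lay between 4.55 and 6.22 over the 20 arrays, and Mir196a-2 was lowest in Cx30GRko Dex 4 (1.87) and highest in Cx30GRko saline 4 (5.45). For genotype under Dex, Mir196a-2 had an unadjusted p of 0.0221 and an adjusted p of 0.423 in limma.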

How the data were processed

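The log2 probe set values deposited by the authors were used as they stood. Per the submitters' processing notes the tool was oligo. The version of oligo, the normalization method, the build and the annotation are not given in the sources used here. Arrays titled Tg were read as Cx30GRko and those titled wt as control.

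Of 41345 probe sets, 23521 named 1 gene in the platform annotation, 1814 several and 16010 none. Each of 22180 genes was represented by its brightest single-symbol probe set (by the mean of all 20 arrays), without a filter on dim signals. Group means were fitted to all 20 arrays with limma 3.58.1 in R 4.3.3 (16 residual and 5.66 prior degrees of freedom), without a block. Two-sided p-values received a Benjamini-Hochberg adjustment across all 22180 genes, comparison by comparison, and an adjusted p under 0.05 was called. The step was tested on simulated data. The centring within the array sets removed a further degree of freedom that this fit did not count.

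Values in every array are given for the member with the highest mean in each paralogue group, the 6 members with the smallest unadjusted p and the 3 above the floor with the largest residual SD. From each other list at most 4 members with an unadjusted p under 0.05 are named, and genes named for their level or their values in single arrays, such as Hotair, were chosen after these were seen. The members, the lists and the tests were chosen with earlier results of these data known. RefSeq sequences are of GRCm38.p6. Alternatives covered blocks, array sets, normalization, array weights, filters, probe set choice, thresholds and leaving out arrays.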

Additional observations from a re-analysis of the deposited data

Results flagged for a closer look

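In 84 groups of 5 values, from 16 members and 5 bands of paralogue groups, 7 had 1 array whose gap to the nearest other was large for the range of the group. The rule is set to flag about 1 in 20 groups whose 5 values come from a single normal distribution. Each group pools both array sets, some members were chosen for a small p or a large SD, and the bands reuse members. The 7 can therefore not be read against that rate. Cx30GRko saline array 4 stood apart in 3 of them. Its Hoxb1 signal was 3.78 against 4.58 to 4.85 in the other arrays of the group, its Hoxc8 signal was 7.69 against 7.27 to 7.39, and its score for paralogue groups 4 to 7 was 0.175 against -0.0481 to -0.012. Cx30GRko Dex array 5 had a Hoxa7 signal of 5.35 against 6.14 to 6.27. Cx30GRko Dex array 3 had a Hoxd13 signal of 3.27 against 2.49 to 2.63, below the floor. Control Dex array 2 had a Hoxb13 signal of 4.29 against 3.56 to 3.74, also below the floor. Control saline array 4 had a score for groups 1 to 3 of 0.129 against -0.0329 to -0.0026. The low Hoxc12 and Hoxd11 arrays did not meet this rule within their groups of 5, which pool both array sets.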

How the results depend on the processing

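No Hox gene was called in any of the 7 comparisons under any alternative run, and leaving out each array in turn gave 0 to 0 calls. The 30 same-numbered pairs of samples had correlations of deviations from the group means between -0.306 and 0.0367. Differently numbered pairs were not compared, and the values are centred within the array sets, so pairing by replicate number is not excluded. With a replicate block 0 Hox genes were called, and the genes called over the array went from 33 to 15 for the mean Dex effect, from 12 to 3 for any difference, and to 0 from 3 and 4 for Dex in control and in Cx30GRko mice. For these counts in the order Dex in control, Dex in Cx30GRko, mean Dex and any difference (3, 4, 33 and 12), array weights gave 58, 18, 129 and 74, replicates 1 to 3 alone 38, 7, 101 and 41, replicates 4 and 5 alone 0, 0, 0 and 0, and an adjusted p under 0.01 gave 0, 0, 13 and 6. Without the 3 arrays low in Hoxc12 and Hoxd11 they were 0, 0, 12 and 1. Without Cx30GRko Dex arrays 4 and 5 Dex in control gave 7 and Dex in Cx30GRko 0. With a block for the array set, with quantile normalization again or with cyclic loess, Dex in Cx30GRko gave 2, and with only the groups compared the 2 Dex comparisons gave 0 and 1.

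The range of the band score moved for groups 1 to 3, from 0.39 to 0.91, and for groups 12 and 13, from 1.20 to 4.32, when only members above the floor were kept, which leaves Hoxc12 alone in the latter. The 16 members with values given in every array were each followed in the comparison of their smallest unadjusted p. Of these differences, all uncalled, 3 changed sign, each for genotype under saline. Hoxc12 went to -0.23 in replicates 4 and 5 and Hoxd10 to 0.16 in replicates 1 to 3. Hoxd11 went to -0.21 in replicates 4 and 5 and to -0.04 without control saline 2. Other members and comparisons were not followed in this way, and signs differed between the array sets there too. For genotype under saline Hoxb1 gave 0.25 (replicates 1 to 3) and -1.07 (replicates 4 and 5), and Hoxb8 0.20 and -0.59. With only the groups compared there is no value for the interaction, the mean Dex effect or any difference. The number of arrays limits the precision.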

Other observations

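Other transcription factors of spinal cord neurons, most of them homeobox genes, were measured for 21 of 23 listed symbols, and 6 were above the floor. Among these were Lmx1b (6.51), a gene of dorsal horn neurons, Prrxl1 (5.88), a gene of sensory circuits, and Pax2 (5.54), which marks inhibitory interneurons. None of the 21 was called in any comparison. The smallest unadjusted p was that of Pax2 for the interaction (0.00351, adjusted p = 0.846 in limma).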
